A study of Saccharomyces cerevisiae with 40 samples.

Results

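The genes described here are the 40 nuclear genes of oxidative phosphorylation in Saccharomyces cerevisiae, taken by systematic name from the 6661 transcripts quantified in the study. They comprise 4 genes of succinate dehydrogenase, 9 of the cytochrome bc1 complex, 9 of cytochrome c oxidase, 13 of ATP synthase, the 2 cytochrome c genes and 3 genes of NADH dehydrogenases. RNA-seq of total RNA from mid-log cultures gave their levels in 8 groups of 5 replicates, 40 libraries in all. S288c was represented by GSY147, a strain of that laboratory background, and RM11 derives from a vineyard isolate. Both were grown in YM, a minimal medium, or in WYF, which is YM with tryptophan, tyrosine and phenylalanine. The 4 treated groups (S288c in YM, S288c in WYF, RM11 in YM and RM11 in WYF) received Cr41, a commercial glyphosate herbicide, for 90 min, at a dose that the labels give both as 0.25% Cr41 and as 0.25% glyphosate in Cr41, and the 4 other groups were the same strains and media left untreated. One line represented each strain, and nothing in the labels says whether replicates were separate cultures, so p-values measure only the spread between these libraries. All directions below go by the treatment on the label of each library.

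Oxidative phosphorylation takes electrons from NADH and succinate, passes them through ubiquinone, the bc1 complex, cytochrome c and cytochrome c oxidase to oxygen, and uses the resulting proton gradient to drive ATP synthase. S. cerevisiae has no proton-pumping complex I. NADH is instead oxidised by single-polypeptide enzymes on the inner membrane, Ndi1 on the matrix side and Nde1 and Nde2 on the outer side. Transcription of the nuclear genes is activated by heme through Hap1 and by the HAP complex of Hap2, Hap3, Hap4 and Hap5, and is repressed by glucose. Cytochrome c and subunit 5 of cytochrome c oxidase each have an aerobic isoform (CYC1, COX5A) and an isoform known from hypoxic cells (CYC7, COX5B).

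Upstream sequences were read because the genes of most complexes moved together between strains. In the 500 bases before the start codon of the S288c reference (RefSeq, R64), the letters TNATTGGT, the core of the HAP complex motif, were found on either strand in 18 of 40 members (45%), against 516 of 6000 nuclear genes (8.6%). The windows of 7 members whose values recur below are printed 5′ to 3′ on the strand of the gene, with the match in capitals, as examples from different complexes. They were chosen for the match, so likeness within the capitals follows from the choice. These 7 carry the reverse complement of the motif, while COX6 and TIM11, which are not shown, carry the forward letters. They lie 318, 248, 202, 213, 198, 230 and 228 bases before the start codons of SDH1, RIP1, COX8, COX13, ATP14, ATP17 and NDI1, in this order.
SDH1 (chrXI:171429-171458, minus strand): ggcgggggtggACCAATCAcagcgcagaac
RIP1 (chrV:107001-107030, plus strand): ctccataacggACCAATCAgcgttttgcgc
COX8 (chrXII:910149-910178, minus strand): aaacggtttgcACCAATCAtacgagagaag
COX13 (chrVII:144584-144613, plus strand): ttttttttcccACCAATGAgaggcggtact
ATP14 (chrXII:722553-722582, minus strand): gccatacacgaACCAATTAtgcatcataaa
ATP17 (chrIV:1228370-1228399, plus strand): ttacggagagaACCAATCAtatcgaaggat
NDI1 (chrXIII:30017-30046, minus strand): tattcattcggACCAATCAtatgaaggcat
The Hap1 motif (CGG, 3 bases of any kind, TA, 1 base and CGG, on either strand) was found in 21 of 6000 nuclear genes (0.35%) and in 1 of 40 members (2.5%), QCR6, the acidic hinge protein of the bc1 complex, which has it at 290 and 225 bases before its start codon, and no match of one motif overlapped a match of the other.
QCR6, distal (chrVI:225039-225068, minus strand): ggcggcctgCCGGTACATCCGtcacctaca
QCR6, proximal (chrVI:224974-225003, minus strand): agcacgttcCGGGCATATCGGactggggcg
A match of letters is a description of the S288c sequence and not evidence of binding, and the sequence of RM11 was not analysed here.

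Library totals lay between 4224356 and 7866046 estimated counts. Values per library are given as CPM, the counts of a gene per library scaled to a common total by the trimmed mean of M values (TMM), with 1 scaling over all 40 libraries. A gene was said to have risen or fallen at an adjusted p under 0.05 in the edgeR quasi-likelihood test, adjusted over all genes tested. RM11 reads were counted on S288c transcripts. Lane 2 of the sequencer held the YM libraries and lane 3 those of WYF, and effects of medium cannot be told apart from those of lane, whereas strain and treatment were compared within a lane. The strain labels held: ASP3-1, a gene known from S288c and missing from many other strains, had 332 to 6075 counts in every S288c library and 0 to 14 in RM11, at most 7 without the RM11 WYF untreated library of replicate 2. Deviating libraries were the Cr41 library of replicate 5 in RM11 in YM, the untreated library of replicate 2 in RM11 in WYF, the Cr41 library of replicate 4 in S288c in YM and the untreated library of replicate 4 in S288c in WYF. Counts of members that rest on them are given with and without them. These 4 were picked after seeing the data, with SDs of the log2 deviation from the group of 0.376, 0.361, 0.515 and 0.360, in this order. The SD was as large in the Cr41 library of replicate 1 and the untreated library of replicate 3 of S288c in YM, at 0.409 and 0.376.

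Together the 40 genes held 0.565% ± 0.0138 of all counts with Cr41 and 0.670% ± 0.0384 untreated in S288c in YM (SD, n = 5 each). In S288c in WYF the shares were 1.05% ± 0.0293 with Cr41 and 0.920% ± 0.0433 untreated (SD, n = 5 each). RM11 had 1.93% ± 0.0290 with Cr41 and 1.81% ± 0.0162 untreated in YM, and 2.22% ± 0.0186 with Cr41 and 2.12% ± 0.0532 untreated in WYF (SD, n = 5 each). The mean of every RM11 group thus stood above that of every S288c group. Per unit length the members spanned a wide range: over all 40 libraries the mean level was 3752 TPM, a share of the library corrected for length, for COX9, a small subunit of cytochrome c oxidase, and 15.2 TPM for NDE2, the minor external NADH dehydrogenase. COX9 and ATP18 are 180 bases long, and their effective lengths of 45 to 54 bases, by which counts are divided, weigh on their TPM.

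The comparison of strains in untreated cells asked whether the chain is set differently before any exposure. Nearly all members were lower in S288c. In YM, 38 of 40 fell and 1 rose, when 35.3% of the 5608 genes tested fell and 36.2% rose. A difference of at least 2-fold was reached by 28 members that were lower and by 1 that was higher, against 8.38% and 6.72% of all genes. The median log2 fold change of the members was -1.47, and that of all genes was -0.00. In WYF, 37 of 40 members were lower and 1 was higher, against 27.5% and 26.7% of 5604 genes, and 21 were lower by at least 2-fold, against 4.91%, and 1 was higher, against 5.87%, with a median of -1.08 against 0.00 for all genes. Every S288c library lay below every RM11 library for 38 members in YM and 36 in WYF, against 28.8% and 21.8% of all genes, and above for 1 in each medium, against 29.8% and 19.8%. The member in exception to the direction was COX5B, which was higher in S288c in both media. Without the untreated WYF libraries of S288c replicate 4 and RM11 replicate 2, 37 were still lower and 1 higher in WYF. In a culture, fewer cells that express a gene and less of its RNA per cell cannot be told apart.

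**Figure D1:**
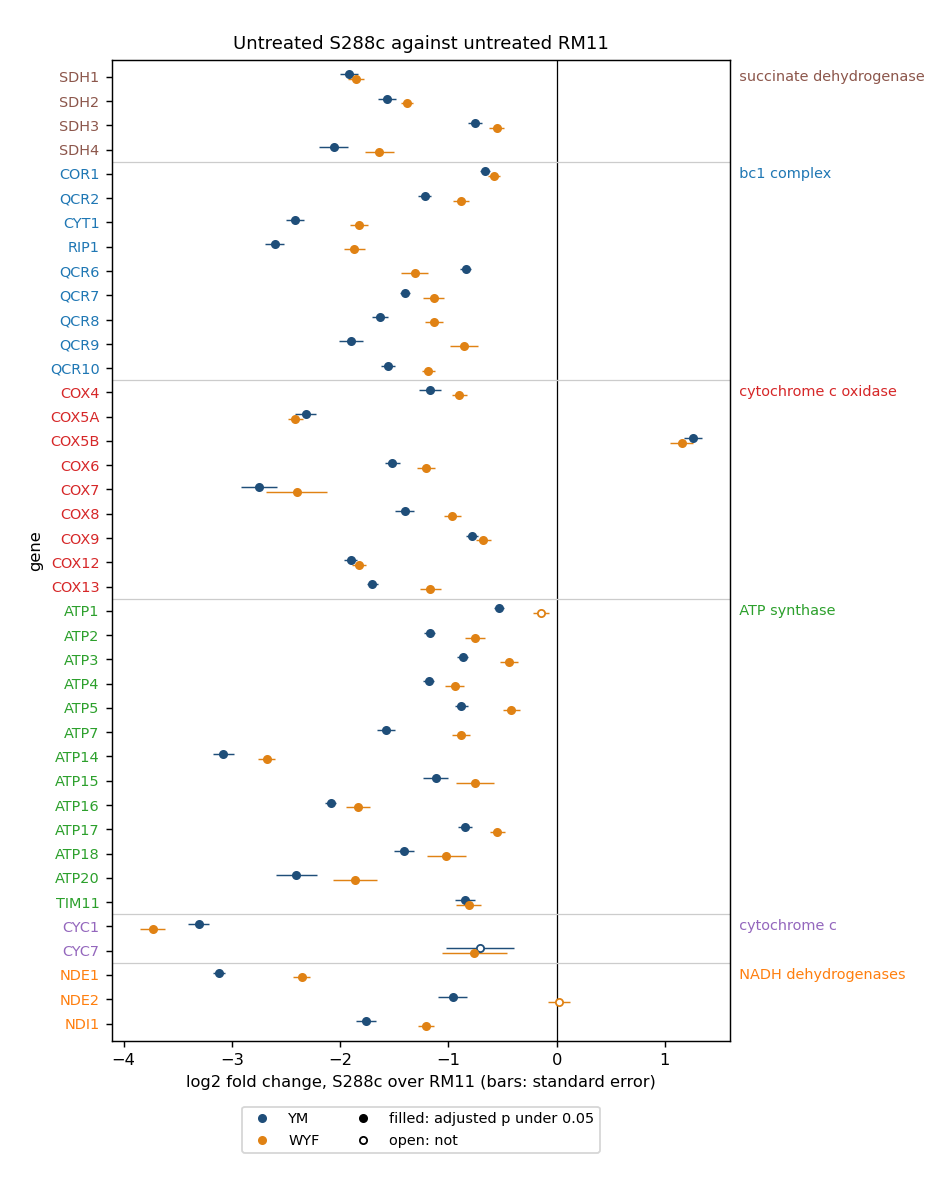
Log2 fold change of each of the 40 genes in untreated S288c over untreated RM11 (x axis; bars are standard errors), in YM and in WYF, with genes grouped by complex down the page. Filled points have an edgeR adjusted p under 0.05. The points lie left of 0 except COX5B in both media and NDE2 in WYF, and the lowest is CYC1, at -3.31 in YM and -3.73 in WYF.

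All 4 genes of succinate dehydrogenase, which feeds electrons from succinate into the chain, were lower in S288c in both media, with medians of -1.74 in YM and -1.51 in WYF. SDH4 (YDR178W), a membrane anchor, differed most in YM: it had 5.15, 9.48, 8.74, 7.56 and 6.66 CPM in S288c, against 29.8, 28.1, 35.5, 31.3 and 33.1 CPM in RM11 (log2 fold change -2.06, standard error 0.14, edgeR adjusted p = 2.7e-08). SDH1 (YKL148C), the flavoprotein that binds succinate, differed most in WYF, with 756, 736, 639, 655 and 763 CPM in S288c, against 2783, 2592, 2506, 2560 and 2446 CPM in RM11 (log2 fold change -1.86, standard error 0.07, edgeR adjusted p = 8.5e-10). The groups did not overlap for either gene. SDH3, the other anchor, which is also part of a protein import complex, differed least in both media, by -0.75 and -0.56 on the log2 scale.

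The bc1 complex, which passes electrons from ubiquinol to cytochrome c, had 9 of 9 genes lower in S288c in both media, with medians of -1.56 in YM and -1.14 in WYF. RIP1 (YEL024W), the Rieske iron-sulfur protein, differed most in both. It had 17.5, 20.4, 17.9, 18.99 and 12.9 CPM in S288c in YM, against 103, 102, 117, 106 and 109 CPM in RM11 (log2 fold change -2.61, standard error 0.09, edgeR adjusted p = 3.6e-11). In WYF it had 44.9, 35.4, 35.9, 36.3 and 33.7 CPM in S288c, against 142, 142, 119, 154 and 128 CPM in RM11 (log2 fold change -1.87, standard error 0.10, edgeR adjusted p = 7.4e-09). CYT1, the cytochrome c1 subunit, came next at -2.42 and -1.83. COR1, a core protein, differed least of the 9 genes, at -0.66 and -0.58, and the order within the complex was not tested.

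Cytochrome c oxidase, which reduces oxygen, had 8 of 9 genes lower and 1 higher in S288c in each medium. COX7 (YMR256C), a small membrane subunit, differed most in YM, with 52.9, 72.8, 50.6, 61.01 and 45.7 CPM in S288c, against 329.6, 266, 449, 383 and 486 CPM in RM11 (log2 fold change -2.75, standard error 0.17, edgeR adjusted p = 9.5e-09). In WYF the largest difference was that of COX5A, which is given below with its isoform. COX12, a subunit on the intermembrane side, was lower by similar amounts, -1.90 in YM and -1.82 in WYF, and COX9 differed least of those that were lower, by -0.78 and -0.68.

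For ATP synthase, 13 of 13 genes were lower in S288c in YM and 12 of 13 in WYF, with medians of -1.17 and -0.81. The differences within this complex were uneven. ATP14 (YLR295C), subunit h of the peripheral stalk, had 20.5, 23.3, 22.95, 21.4 and 14.5 CPM in S288c in YM, against 182, 179, 176, 166 and 165 CPM in RM11 (log2 fold change -3.08, standard error 0.09, edgeR adjusted p = 1.2e-11), and 27.4, 28.2, 26.7, 24.2 and 30.1 CPM in WYF, against 179, 167, 162, 174 and 191 CPM in RM11 (log2 fold change -2.68, standard error 0.07, edgeR adjusted p = 4.1e-11). ATP1 (YBL099W), the alpha subunit of the catalytic head, had 725, 675, 718, 759.6 and 748 CPM in S288c in YM, against 1089, 1023, 1051, 1003 and 1066 CPM in RM11 (log2 fold change -0.53, standard error 0.04, edgeR adjusted p = 1.3e-07). In WYF, ATP1 was the gene of this complex that did not pass, at -0.14 (edgeR adjusted p = 0.13), and its groups overlapped. ATP16, the delta subunit of the rotor, and ATP20, subunit g of the dimer interface, were among the lowest, at -2.09 and -2.40 in YM, while the beta subunit gene ATP2 was at -1.17.

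Members with and without the HAP motif had like medians. In YM the median log2 fold change was -1.46 for the 18 members with the motif and -1.48 for the other members. In WYF the medians were -1.05 and -1.08. QCR6, the member with the Hap1 motif, was at -0.84 in YM and -1.31 in WYF. Of 8 regulator genes (HAP1 to HAP5, ROX1, MOT3 and MIG1), 2 were higher and 4 lower in untreated S288c in YM, against 36.2% and 35.3% of all genes. In WYF 1 was higher and 4 were lower, against 26.7% and 27.5%. HAP1 RNA was higher in S288c, at 300.7 ± 5.93 CPM, against 154 ± 6.85 CPM in RM11 in YM (SD, n = 5 each; log2 fold change 0.96, standard error 0.04, edgeR adjusted p = 4.4e-10), and HAP4, which encodes the activating subunit of the HAP complex, was lower, at 142 ± 29.4 CPM, against 296 ± 29.4 CPM in RM11 (SD, n = 5 each; log2 fold change -1.06, standard error 0.12, edgeR adjusted p = 4e-06). In WYF the differences were 1.26 and -0.83 (edgeR adjusted p = 3.5e-09 and 0.00025). Other regulators went both ways in untreated cells in YM. For HAP2, ROX1 and MOT3 every S288c library lay below every RM11 library, for HAP3 every one lay above, and HAP5 and MIG1 overlapped. S288c is known to carry a Ty1 element in the coding region of HAP1. Whether GSY147 carries it was not examined, and the part of any of these regulators in the differences was not tested.

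The summed levels of each complex show the 8 groups side by side. Summed CPM of succinate dehydrogenase averaged 1327 ± 94.2 with Cr41 and 995 ± 121 untreated in S288c in YM, and 2368 ± 147 with Cr41 and 1613 ± 78.8 untreated in S288c in WYF (SD, n = 5 each). The RM11 means were 3842 ± 844 with Cr41 and 3175 ± 93.1 untreated in YM, and 5015 ± 204 with Cr41 and 4712 ± 144 untreated in WYF (SD, n = 5 each). For ATP synthase the sums were 2424 ± 206 with Cr41 and 2850 ± 104 untreated in S288c in YM, and 5002 ± 120 with Cr41 and 4145 ± 369 untreated in S288c in WYF (SD, n = 5 each). Cr41 libraries of S288c therefore had the higher sum of succinate dehydrogenase in both media, but for ATP synthase they had the lower sum in YM and the higher sum in WYF. The bc1 sums were 1673 ± 137 with Cr41 and 1587 ± 101 untreated in S288c in YM, and the sums of cytochrome c oxidase were 722 ± 60.2 with Cr41 and 807 ± 35.2 untreated (SD, n = 5 each). A sum is dominated by the genes with most counts, and these were not tested as sums.

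**Figure D2:**
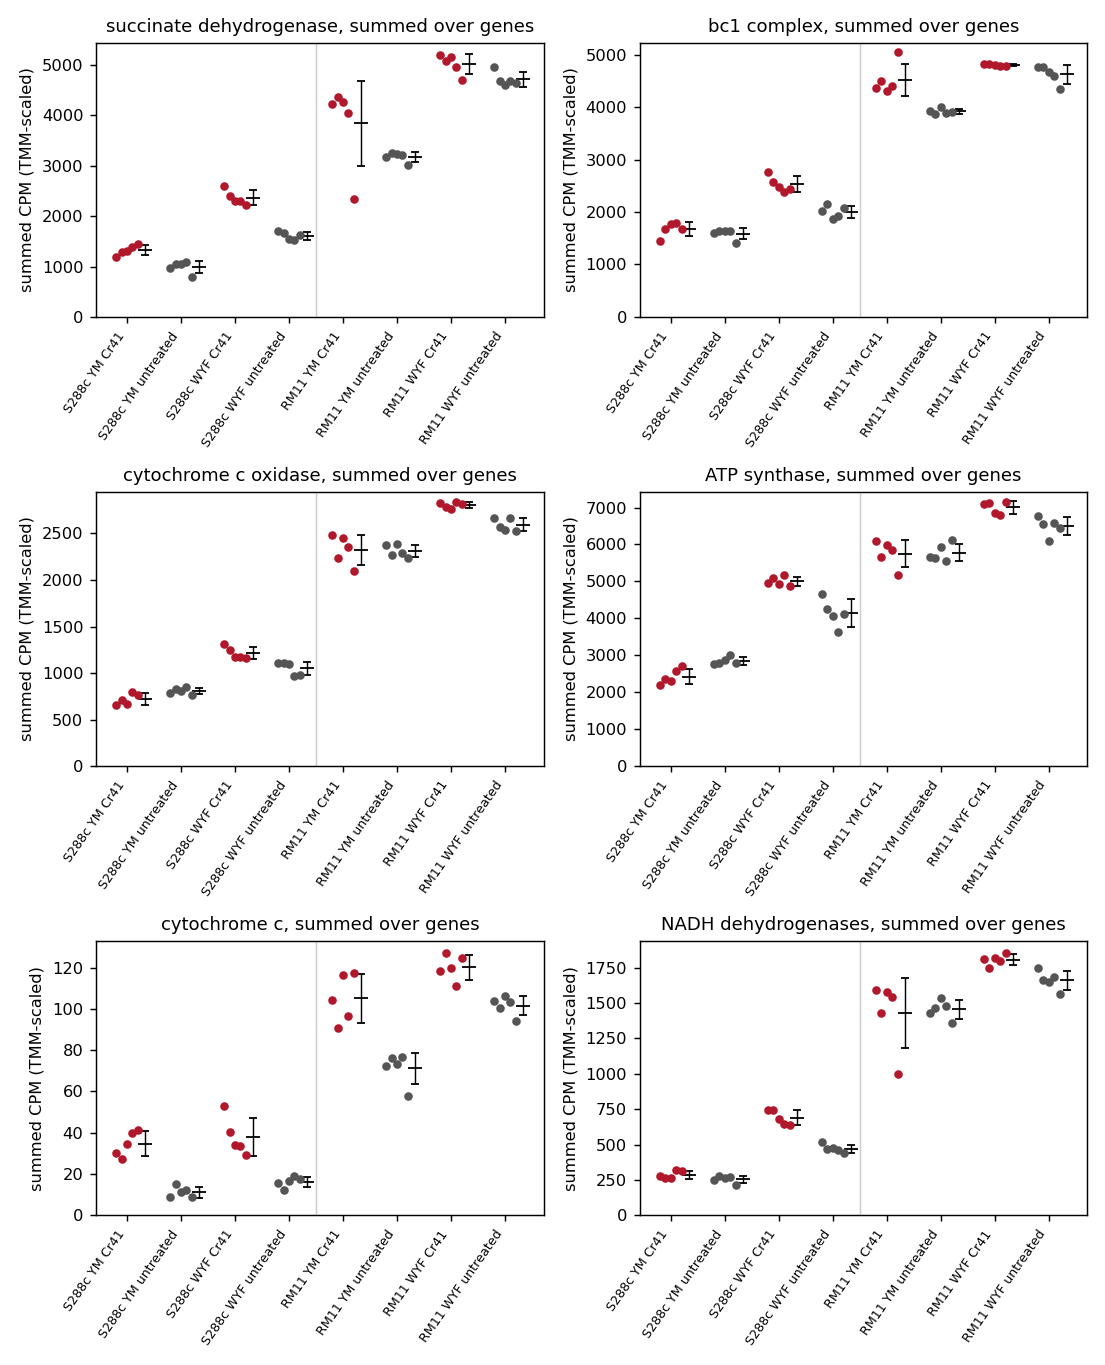
Summed CPM of the genes of each complex (y axis, from 0) in every library of the 8 groups (x axis), Cr41 in red and untreated in grey, with the mean and SD of each group in black. In every panel the mean of each RM11 group lies above that of each S288c group. For succinate dehydrogenase the RM11 YM Cr41 library of replicate 5 stands apart, at 2346 summed CPM, where the other 4 libraries lie at 4036 to 4358.

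With Cr41 in S288c in YM the members did not move as 1 group: 9 of 40 rose and 15 fell, when 33% of the 5716 genes tested rose and 34.2% fell. At least 2-fold changes were made by 3 members upward and 3 downward, against 11% and 8.82% of all genes. Groups did not overlap for 9 members that were higher and 10 that were lower, against 27.3% and 26.6%. The median log2 fold change was -0.03 for the members and -0.00 for all genes. With limma on log2(TPM + 1), a scale on which the median of all genes moved to -0.14, 6 members rose and 19 fell, so that 24% of the members called had risen, against 37.5% with TMM scaling. Without the Cr41 library of replicate 4, 8 rose and 16 fell, and without the Cr41 library of replicate 1 or the untreated library of replicate 3, 8 rose and 13 fell.

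By complex the counts were small, beside 33% of all genes that rose and 34.2% that fell, and differences between complexes were not tested. Of succinate dehydrogenase 2 genes rose and 0 fell (0 at an unadjusted p under 0.05 by edgeR), and SDH2 (YLL041C), its iron-sulfur subunit, had 595, 677, 668, 688 and 708 CPM with Cr41, against 394, 397, 403, 440.2 and 302 CPM untreated (log2 fold change 0.75, standard error 0.09, edgeR adjusted p = 1.3e-05). Of the bc1 complex 2 genes rose and 2 fell, and RIP1 rose most, with 31.7, 32.4, 33.5, 39.4 and 48.3 CPM with Cr41, against 17.5, 20.4, 17.9, 18.99 and 12.9 CPM untreated (log2 fold change 1.03, standard error 0.14, edgeR adjusted p = 4.6e-05). The groups did not overlap for either iron-sulfur protein. Cytochrome c oxidase had 2 genes that rose and 5 that fell. COX7 fell most, with 21.6, 21.7, 18.9, 35.98 and 37.1 CPM with Cr41, against 52.9, 72.8, 50.6, 61.01 and 45.7 CPM untreated (log2 fold change -1.12, standard error 0.19, edgeR adjusted p = 0.00028). COX8, another small membrane subunit, fell by 0.76 on the log2 scale. For ATP synthase 7 of 13 genes fell and none rose by edgeR, although ATP5 was higher at an unadjusted p under 0.05. ATP17 (YDR377W), subunit f of the membrane part, fell most, with 106, 127, 123, 124 and 121 CPM with Cr41, against 315, 298, 319.5, 352 and 321 CPM untreated (log2 fold change -1.45, standard error 0.06, edgeR adjusted p = 2e-09), a 2.74-fold difference with no overlap. ATP18, subunit i/j, and ATP14 fell by 0.77 and 0.58, while the catalytic beta subunit ATP2 was at -0.08 and did not pass.

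In S288c in WYF the pattern was more uniform: 26 of 40 members rose and 1 fell, when 22.7% of the 5581 genes tested rose and 25.4% fell. The changes were small, since 1 member rose by at least 2-fold (2.99% of all genes did), 0 fell by as much (5.36% of all genes did) and the median was 0.31, against -0.01 for all genes. Groups did not overlap for 22 members that were higher and 0 that were lower, against 18.1% and 18.2% of all genes. Without the untreated library of replicate 4, 24 rose and 1 fell. SDH2 rose again, with 1269, 1205, 1132, 1102 and 1094 CPM with Cr41, against 708, 707, 689.7, 679 and 653 CPM untreated (log2 fold change 0.73, standard error 0.06, edgeR adjusted p = 1.8e-07). RIP1 led the bc1 complex, of which 7 of 9 genes rose, with 66.4, 58.04, 59.99, 58.9 and 56.1 CPM with Cr41, against 44.9, 35.4, 35.9, 36.3 and 33.7 CPM untreated (log2 fold change 0.66, standard error 0.09, edgeR adjusted p = 3.5e-05). COX13 (YGL191W), a subunit known to modulate the oxidase, led the 5 genes of cytochrome c oxidase that rose, with 140, 129.5, 129.8, 142 and 127 CPM with Cr41, against 105.4, 82.8, 89.2, 68.9 and 85.5 CPM untreated (log2 fold change 0.61, standard error 0.10, edgeR adjusted p = 0.00015). Neither gene had overlapping groups. Of ATP synthase 7 genes rose and 1 fell. ATP20 rose most, with 5.02, 7.11, 6.05, 9.18 and 7.88 CPM with Cr41, against 5.63, 3.76, 4.14, 2.49 and 4.87 CPM untreated (log2 fold change 0.75, standard error 0.23, edgeR adjusted p = 0.016), and its groups overlapped at these low levels. The gene that fell was ATP17 (log2 fold change -0.26, standard error 0.08, edgeR adjusted p = 0.013), and it also overlapped.

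In RM11 in YM, 6 of 40 members rose and 0 fell by edgeR, when 7.99% of the 5496 genes tested rose and 7.28% fell. At an unadjusted p under 0.05, 10 were higher and 1 was lower, and DESeq2 gave 6 and 0. By at least 2-fold 2 rose and 0 fell, against 0.946% and 0.71%, and the groups did not overlap for 6 that were higher and 1 that was lower, against 7.59% and 7.31%. The median was 0.05, against 0.01 for all genes. The 6 were COR1, QCR2, CYT1 and QCR6 of the bc1 complex, CYC7 and NDE2, and no gene of succinate dehydrogenase, cytochrome c oxidase or ATP synthase passed. QCR6 (YFR033C) had 1101, 1138, 1044, 1055 and 1669 CPM with Cr41, against 919.5, 939.8, 901, 915 and 926 CPM untreated (log2 fold change 0.38, standard error 0.12, edgeR adjusted p = 0.04), with no overlap. COR1, QCR2 and CYT1 rose by 0.32, 0.25 and 0.27. The Cr41 library of replicate 5 decided much of this count. It was the highest of its group for QCR6 and the lowest for all 4 genes of succinate dehydrogenase: SDH1 had 2337, 2454, 2370, 2287 and 1261 CPM with Cr41, against 1772, 1845, 1773, 1790 and 1732 CPM untreated. Without it 15 members rose and 2 fell, and QCR6 was at 0.23. With any other single library of the comparison left out, 3 to 5 members passed, the fewest without the untreated library of replicate 1 or of replicate 4.

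In RM11 in WYF, 18 of 40 members rose and 0 fell by edgeR, when 17.8% of the 5469 genes tested rose and 17.8% fell. At an unadjusted p under 0.05, 21 were higher and 1 was lower, and DESeq2 gave 17 and 0. Their median was 0.11, against -0.00 for all genes, and 2 rose by at least 2-fold and 0 fell, against 1.19% and 0.457% of all genes. The groups did not overlap for 12 members that were higher and 0 that were lower, against 12.1% and 12% of all genes. COX8 (YLR395C) rose most in cytochrome c oxidase, with 393, 429.7, 380.4, 424 and 420.2 CPM with Cr41, against 311, 306, 309, 329 and 316 CPM untreated (log2 fold change 0.39, standard error 0.04, edgeR adjusted p = 2.6e-06). ATP15 (YPL271W), the epsilon subunit of the rotor, led ATP synthase, with 53.7, 63.8, 48.6, 59.4 and 52.2 CPM with Cr41, against 47.4, 46.6, 38.3, 44.9 and 45.2 CPM untreated (log2 fold change 0.33, standard error 0.08, edgeR adjusted p = 0.004). SDH2 had 2005, 2005, 2070, 1998 and 1932 CPM with Cr41, against 1831, 1746, 1775, 1761 and 1846 CPM untreated (log2 fold change 0.17, standard error 0.03, edgeR adjusted p = 0.0014). The groups of these 3 genes did not overlap. QCR9, a small bc1 subunit, had 37.2, 31.9, 20.3, 31.2 and 32.1 CPM with Cr41, against 26.8, 25.7, 21.4, 24.5 and 21.9 CPM untreated (log2 fold change 0.34, standard error 0.13, edgeR adjusted p = 0.044). Its lowest value was a Cr41 library, so the groups overlapped. Without the untreated library of replicate 2, 16 rose, and in 1 fit over all 40 libraries 6 members passed.

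**Figure D3:**
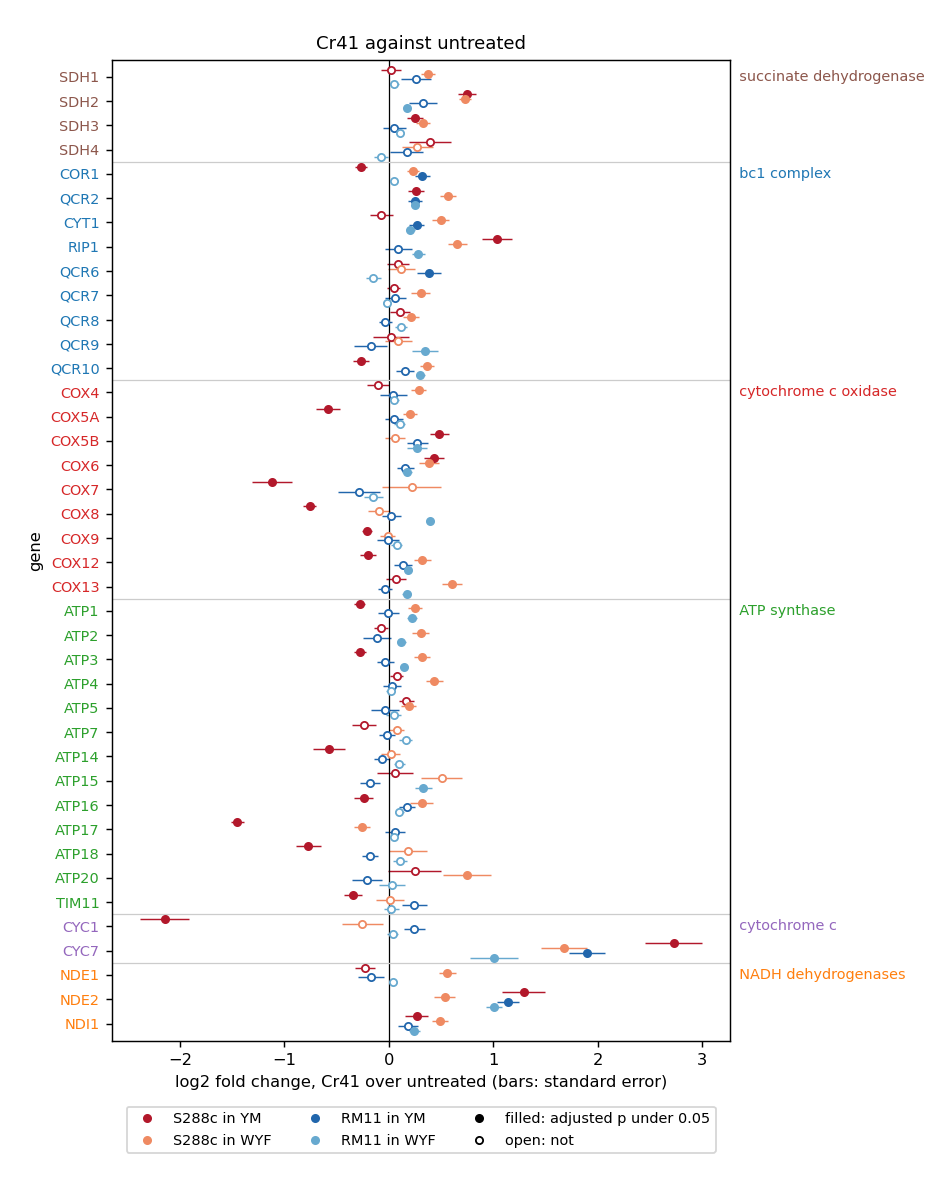
Log2 fold change of each of the 40 genes with Cr41 over untreated (x axis; bars are standard errors) in the 4 combinations of strain and medium, with genes grouped by complex down the page. Filled points have an edgeR adjusted p under 0.05. CYC7 and NDE2 lie right of 0 in all 4, and the values farthest left are those of S288c in YM, CYC1 at -2.15, ATP17 at -1.45 and COX7 at -1.12.

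Cytochrome c, which shuttles electrons between the bc1 complex and cytochrome c oxidase, showed the widest differences. CYC1 (YJR048W), at chrX:526335-526664 (R64, plus strand, 1 coding segment), the aerobic isoform, had 5.89, 7.53, 5.83, 6.39 and 6.28 CPM in untreated S288c in YM, against 63.5, 66.5, 66.97, 66.5 and 54.1 CPM in untreated RM11 (log2 fold change -3.31, standard error 0.10, edgeR adjusted p = 7e-12). In WYF it had 6.82, 5.63, 7.71, 4.61 and 7.41 CPM in untreated S288c, against 88.5, 83.3, 80.2, 84.4 and 87.5 CPM in RM11 (log2 fold change -3.73, standard error 0.12, edgeR adjusted p = 8.2e-11). The strains did not come near each other in either medium. With Cr41 in S288c in YM, CYC1 had 1.47, 1.72, 1.30, 0.862 and 1.94 CPM, below every untreated library (log2 fold change -2.15, standard error 0.23, edgeR adjusted p = 5.3e-06), a 4.44-fold difference. These levels stand for 4 to 9 counts per library, against 32 to 54 counts in the untreated libraries, so counting noise weighs on them. In S288c in WYF, CYC1 had 4.81, 5.34, 7.56, 4.11 and 5.44 CPM with Cr41, and the groups overlapped (log2 fold change -0.25, standard error 0.20, edgeR adjusted p = 0.31). RM11 had 75.1, 60.6, 86.2, 69.4 and 85.4 CPM with Cr41 in YM, at 0.25 over its untreated libraries (edgeR adjusted p = 0.13), and 88.5, 84.7, 90.6, 83.2 and 83.9 CPM in WYF, at 0.04 (edgeR adjusted p = 0.63).

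CYC7 (YEL039C), at chrV:79636-79977 (R64, minus strand, 1 coding segment), the isoform known from hypoxic cells, rose with Cr41 in all 4 combinations. In S288c in YM it had 28.7, 25.4, 33.2, 39.2 and 39.4 CPM with Cr41, against 2.80, 7.53, 5.46, 5.72 and 2.47 CPM untreated (log2 fold change 2.73, standard error 0.27, edgeR adjusted p = 2.6e-06), a 6.64-fold difference. In S288c in WYF it had 48.1, 35.1, 26.5, 29.2 and 23.8 CPM with Cr41, against 8.74, 6.81, 8.65, 14.6 and 10.2 CPM untreated (log2 fold change 1.68, standard error 0.22, edgeR adjusted p = 3.2e-05). No Cr41 library of S288c overlapped an untreated one. In RM11 in YM it had 29.3, 30.2, 30.4, 27.3 and 31.9 CPM with Cr41, against 8.79, 9.53, 6.43, 10.03 and 3.93 CPM untreated (log2 fold change 1.90, standard error 0.17, edgeR adjusted p = 4e-06). In RM11 in WYF it had 30.1, 42.3, 29.2, 27.99 and 40.8 CPM with Cr41, against 15.3, 17.3, 26.1, 18.97 and 6.44 CPM untreated (log2 fold change 1.01, standard error 0.23, edgeR adjusted p = 0.003). The Cr41 libraries reached similar levels in all 4 groups, between 23.8 and 48.1 CPM, whereas the untreated levels differed, with every untreated YM library of S288c at or below 7.53 CPM and the RM11 WYF libraries spread between 6.44 and 26.1 CPM. Between untreated strains CYC7 was at -0.71 in YM (edgeR adjusted p = 0.059) and -0.76 in WYF (edgeR adjusted p = 0.047), with overlapping groups in both. CYC1 and CYC7 share 5 of their 31-base words, 1.67% of CYC1 and 1.6% of CYC7, and are the only members that share any with another gene.

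On the length-corrected scale the balance between isoforms turned with Cr41 in S288c in YM. The TPM ratio of CYC7 to CYC1 was 23.6 ± 11.3 with Cr41 and 0.694 ± 0.268 untreated in S288c in YM, and 5.98 ± 2.42 with Cr41 and 1.54 ± 0.797 untreated in S288c in WYF (SD, n = 5 each). In RM11, CYC1 remained the larger: the ratio was 0.378 ± 0.0545 with Cr41 and 0.114 ± 0.0321 untreated in YM, and 0.376 ± 0.0848 with Cr41 and 0.190 ± 0.0858 untreated in WYF (SD, n = 5 each). Each ratio was computed within a library and carries the counting noise of CYC1 in S288c.

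The isoforms of subunit 5 differed between strains in opposite directions. COX5A (YNL052W), the aerobic form, had 37.3, 42.4, 41.2, 49.9 and 34.8 CPM in untreated S288c in YM, against 228, 219, 199, 200 and 176 CPM in RM11 (log2 fold change -2.32, standard error 0.10, edgeR adjusted p = 2.4e-10), and 45.6, 51.4, 47.8, 45.4 and 51.9 CPM in untreated S288c in WYF, against 251, 236, 266, 263 and 273 CPM in RM11 (log2 fold change -2.41, standard error 0.07, edgeR adjusted p = 4.1e-11). COX5B (YIL111W) had 43.4, 46.6, 44.99, 46.7 and 39.8 CPM in untreated S288c in YM, against 21.5, 19.1, 17.1, 16.4 and 18.2 CPM in RM11 (log2 fold change 1.26, standard error 0.08, edgeR adjusted p = 2.2e-08), and 48.5, 53.5, 49.3, 39.9 and 54.4 CPM in untreated S288c in WYF, against 22.02, 25.6, 22.3, 18.8 and 21.2 CPM in RM11 (log2 fold change 1.16, standard error 0.11, edgeR adjusted p = 1.2e-06). Neither isoform had overlapping strains in either medium. The TPM ratio of COX5B to COX5A was 1.10 ± 0.0863 in untreated S288c and 0.0922 ± 0.00863 in untreated RM11 in YM, and 1.06 ± 0.0957 in S288c and 0.0870 ± 0.0146 in RM11 in WYF (SD, n = 5 each).

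With Cr41 the S288c isoforms moved apart further in YM. COX5A fell, with 23.8, 29.6, 25.7, 34.5 and 28.01 CPM with Cr41, against the untreated values above (log2 fold change -0.58, standard error 0.12, edgeR adjusted p = 0.00087), and COX5B rose, with 51.95, 59.7, 61.4, 75.2 and 70.9 CPM with Cr41 (log2 fold change 0.48, standard error 0.09, edgeR adjusted p = 0.00045). Neither overlapped with its untreated group, and the TPM ratio of COX5B to COX5A was 2.31 ± 0.208 with Cr41 and 1.10 ± 0.0863 untreated (SD, n = 5 each). In S288c in WYF, COX5A had 59.6, 58.4, 54.5, 53.9 and 55.1 CPM with Cr41 (log2 fold change 0.20, standard error 0.07, edgeR adjusted p = 0.025), and COX5B had 58.5, 55.6, 45.6, 52.2 and 46.7 CPM (log2 fold change 0.06, standard error 0.10, edgeR adjusted p = 0.63), so that the rise of COX5A was small and COX5B overlapped. RM11 in YM had 208, 217, 230.1, 226 and 179.8 CPM of COX5A and 24.4, 21.2, 22.2, 20.4 and 23.1 CPM of COX5B with Cr41, and neither passed. In RM11 in WYF, COX5A had 299, 278, 278, 255 and 264 CPM with Cr41 and did not pass, and COX5B had 25.2, 31.1, 23.1, 24.6 and 27.2 CPM (log2 fold change 0.27, standard error 0.10, edgeR adjusted p = 0.044), with overlapping groups.

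**Figure D4:**
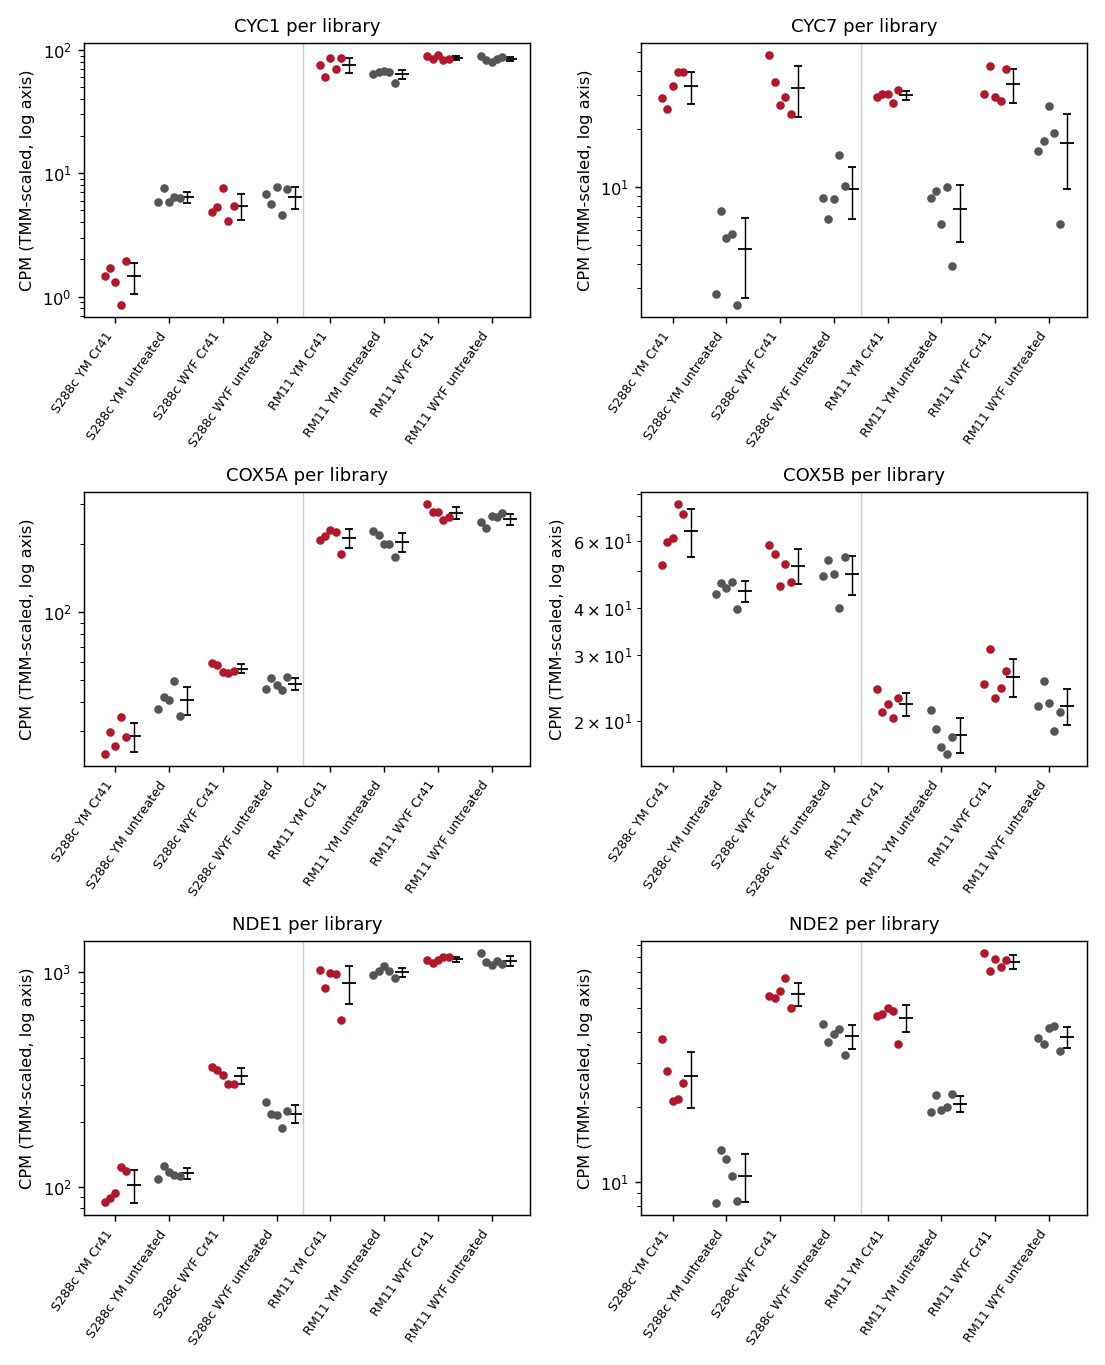
CPM (TMM-scaled, log axis) of CYC1, CYC7, COX5A, COX5B, NDE1 and NDE2 in every library of the 8 groups (x axis), Cr41 in red and untreated in grey, with the mean and SD of each group in black. CYC1 falls to between 0.862 and 1.94 CPM in S288c in YM with Cr41, COX5B is the only panel in which every S288c library lies above every RM11 library, and the Cr41 groups of CYC7 reach similar levels in all 4 combinations.

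The NADH dehydrogenases were lower in untreated S288c, but not alike. NDE1 (YMR145C), the main external enzyme, had 109, 125, 118, 114 and 112 CPM in untreated S288c in YM, against 972, 1012, 1075, 1011 and 939.6 CPM in RM11 (log2 fold change -3.12, standard error 0.05, edgeR adjusted p = 5.9e-14), and 249.8, 219, 215, 189 and 226 CPM in WYF, against 1224, 1122, 1081, 1126 and 1088 CPM in RM11 (log2 fold change -2.36, standard error 0.08, edgeR adjusted p = 1.6e-10). NDI1 (YML120C), the internal enzyme, had 132, 138, 133, 144 and 92.5 CPM in S288c in YM, against 438, 434, 442, 449.5 and 399.8 CPM in RM11 (log2 fold change -1.76, standard error 0.10, edgeR adjusted p = 3e-09), and 222, 212, 221, 229 and 182 CPM in WYF, against 482, 506, 523, 515 and 439.5 CPM in RM11 (log2 fold change -1.21, standard error 0.08, edgeR adjusted p = 3.6e-08). Neither overlapped in either medium. NDE2 (YDL085W) had 8.24, 13.4, 12.4, 10.6 and 8.38 CPM in S288c in YM, against 19.03, 22.3, 19.5, 19.9 and 22.5 CPM in RM11 (log2 fold change -0.96, standard error 0.14, edgeR adjusted p = 3.3e-05). In WYF it had 43.3, 36.4, 39.5, 41.3 and 32.4 CPM in S288c, against 37.9, 35.8, 41.7, 42.4 and 33.5 CPM in RM11, and the strains overlapped (log2 fold change 0.02, standard error 0.10, edgeR adjusted p = 0.89).

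NDE2 rose with Cr41 in all 4 combinations, as CYC7 did. In S288c it had 37.6, 27.9, 21.2, 21.6 and 24.99 CPM with Cr41 in YM (log2 fold change 1.29, standard error 0.20, edgeR adjusted p = 0.00014) and 55.7, 55.1, 58.5, 66.2 and 49.9 CPM in WYF (log2 fold change 0.53, standard error 0.10, edgeR adjusted p = 0.00047). RM11 libraries had 46.4, 47.3, 50.2, 48.8 and 36.0 CPM with Cr41 in YM (log2 fold change 1.14, standard error 0.10, edgeR adjusted p = 4e-06) and 82.9, 70.8, 79.1, 73.01 and 77.9 CPM in WYF (log2 fold change 1.01, standard error 0.08, edgeR adjusted p = 7.4e-08). No Cr41 library overlapped the untreated libraries of its strain and medium. NDE1 rose in S288c in WYF, with 362, 351, 331, 301 and 301 CPM with Cr41 (log2 fold change 0.56, standard error 0.08, edgeR adjusted p = 6.7e-05), and did not pass elsewhere: it had 85.1, 88.9, 94.1, 123 and 118 CPM in S288c in YM, at -0.23, 1030, 849, 992, 984 and 598 CPM in RM11 in YM, at -0.17, and 1143, 1106, 1147, 1178 and 1173 CPM in RM11 in WYF, at 0.04. The TPM ratio of NDE2 to NDE1 in S288c in YM was 0.277 ± 0.108 with Cr41 and 0.0931 ± 0.0154 untreated (SD, n = 5 each). NDI1 had 151, 147, 145, 177 and 170.4 CPM with Cr41 in S288c in YM (log2 fold change 0.27, standard error 0.11, edgeR adjusted p = 0.046) and 329, 342, 287.6, 277 and 284 CPM in S288c in WYF (log2 fold change 0.49, standard error 0.08, edgeR adjusted p = 2e-04). RM11 libraries had 518, 530.2, 538, 506 and 365 CPM with Cr41 in YM, at 0.18 (edgeR adjusted p = 0.24), and 588, 569.9, 593, 544 and 605 CPM in WYF (log2 fold change 0.25, standard error 0.05, edgeR adjusted p = 0.0013). Without the Cr41 library of replicate 5, the lowest of its group, NDI1 rose in RM11 in YM by 0.27 (edgeR adjusted p = 0.00035).

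Between media, the members of untreated cells were higher in WYF, a comparison in which the lane cannot be told apart from the medium. In S288c, 31 of 40 rose and 0 fell by edgeR (34 and 1 at an unadjusted p under 0.05, and 31 and 0 by DESeq2), when 20% of the 5581 genes tested rose and 20.6% fell, with a median of 0.53, against -0.01 for all genes. In RM11, 22 of 40 rose and 0 fell by edgeR (27 and 0 at an unadjusted p under 0.05, and 24 and 0 by DESeq2), when 13.2% of 5499 genes rose and 13.2% fell, with a median of 0.19, against 0.00 for all genes. All 4 genes of succinate dehydrogenase and all 3 of the NADH dehydrogenases rose in both strains. NDE2 rose most in S288c, with 43.3, 36.4, 39.5, 41.3 and 32.4 CPM in WYF, against 8.24, 13.4, 12.4, 10.6 and 8.38 CPM in YM (log2 fold change 1.85, standard error 0.15, edgeR adjusted p = 1.2e-06), and rose in RM11 as well (log2 fold change 0.87, standard error 0.09, edgeR adjusted p = 3.3e-06). RIP1, QCR9, CYC7, SDH4 and CYT1 also rose by at least 2-fold in S288c, at 1.07, 1.05, 1.03, 1.01 and 1.01, so that 6 members did and 0 fell by as much, against 3.19% and 0.878% of all genes. In RM11 CYC7 alone did, at 1.07, and 0 fell by as much, against 0.546% and 1.35%. WYF libraries did not overlap YM libraries for 26 members in S288c and 18 in RM11, all higher and 0 lower, against 15.2% and 10.2% of all genes that were higher and 12.4% and 8.18% that were lower. CYC1 was at -0.01 in S288c (edgeR adjusted p = 0.96) and rose in RM11 by 0.39 (edgeR adjusted p = 0.00036). Without the S288c untreated WYF library of replicate 4, 36 members rose and 1 fell in S288c, and without the RM11 library of replicate 2, 21 rose in RM11.

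Whether these responses differed was tested as interactions in fits of 20 libraries. The change with Cr41 in S288c minus that in RM11 passed for 17 of 40 members in YM, 3 positive and 14 negative, against 25.7% and 28.4% of 5795 genes. CYC1 had -2.41 (standard error 0.22, edgeR adjusted p = 6.5e-09) and ATP17 had -1.52 (standard error 0.12, edgeR adjusted p = 1.2e-09), while RIP1 had 0.93 (standard error 0.21, edgeR adjusted p = 0.00074) and CYC7 had 0.81 (standard error 0.33, edgeR adjusted p = 0.044). The negative ones included COX5A at -0.64, COX7 at -0.84 and COX8 at -0.79. With limma on log2(TPM + 1) 1 was positive and 20 were negative, 4.76% positive, against 17.6% with TMM scaling, and without the Cr41 libraries of replicate 4 in S288c and replicate 5 in RM11, 2 were positive and 16 negative. When the libraries of replicate 1 or of replicate 3 were left out of every group, 11 and 9 members passed. RIP1 was then the 1 positive member, as it was without replicate 4 and with all genes with any count, while SDH2 and CYC7 no longer passed, and COX7 did not pass without replicate 1, 2, 3 or 4. In WYF, 14 were positive and 3 negative, against 15% and 20.1% of 5669 genes. SDH2 had 0.57 (standard error 0.06, edgeR adjusted p = 3.3e-07) and NDE1 had 0.53 (standard error 0.09, edgeR adjusted p = 8e-05). The 3 negative members were COX8 at -0.48, NDE2 at -0.47 and ATP17 at -0.30. For CYC1 and CYC7 the strain difference in WYF did not pass, at -0.27 and 0.67. Among the members that passed, the change was thus more often lower in S288c than in RM11 in YM, and more often higher in WYF. Of all 40 members, passed or not, 18 were positive and 22 negative in YM, with a median of -0.10. In WYF 30 were positive and 10 negative, with a median of 0.20.

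The change with Cr41 in WYF minus that in YM passed for 24 members in S288c, 21 positive and 3 negative, against 19.6% and 21.4% of 5754 genes. CYC1 had 1.89 (standard error 0.31, edgeR adjusted p = 4.4e-05), COX7 had 1.33 (standard error 0.39, edgeR adjusted p = 0.0087) and ATP17 had 1.19 (standard error 0.10, edgeR adjusted p = 6.3e-09). The 3 negative members that passed each had the larger rise in YM, CYC7 with -1.06 (standard error 0.36, edgeR adjusted p = 0.023), NDE2 with -0.76 (standard error 0.21, edgeR adjusted p = 0.0071) and COX5B with -0.43 (standard error 0.14, edgeR adjusted p = 0.019). Without the Cr41 YM library and the untreated WYF library of replicate 4, CYC7 no longer passed, at -0.77 (edgeR adjusted p = 0.093). In RM11, 3 were positive and 2 negative, against 5.12% and 6.1% of 5545 genes: ATP15, COX8 and COX13 at 0.52, 0.39 and 0.22, and QCR6 and COR1 at -0.52 and -0.26. That count rested on single libraries, since 12 members passed without replicate 5 of every group, 9 without the 2 deviating RM11 libraries, 2 without replicate 4, 1 without replicate 1 or replicate 3 and 0 without replicate 2.

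The strain difference of untreated cells in WYF minus that in YM passed for 21 members, 19 positive and 2 negative, against 18.4% and 17% of 5684 genes. QCR9 had 1.06 (standard error 0.16, edgeR adjusted p = 4.4e-05), NDE2 had 0.9974 (standard error 0.17, edgeR adjusted p = 0.00011), NDE1 had 0.78 (standard error 0.09, edgeR adjusted p = 1.4e-06) and RIP1 had 0.76 (standard error 0.14, edgeR adjusted p = 0.00024). QCR6 and CYC1 were the negative members, at -0.45 and -0.41. The strains thus stood closer in WYF for most of the members that passed. The negative calls were not stable: neither QCR6 nor CYC1 passed without replicate 1 or replicate 2 of every group, QCR6 did not without replicate 3, and CYC1 did not without replicate 4 or 5, with DESeq2, with the replicate block or without the deviating untreated WYF libraries, where 23 members were positive and 1 negative.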

How the data were processed

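RNA was extracted with hot phenol, and libraries of total RNA were built with the ScriptSeq Complete Gold Yeast kit. For both strains alike, the authors obtained the expected count of each S288c transcript with Salmon 0.13.1 and deposited these estimated counts without normalization. The release of the transcriptome is not given in the sources used here. Deposited TPM values come from the same Salmon run, with counts divided by effective lengths, and the other deposited columns hold lengths in bases. The authors tested their comparisons with DESeq2, and no result of theirs was used here.

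Rounded counts were filtered with filterByExpr, scaled by TMM and tested with edgeR 4.0.16 (R 4.3.3), whose quasi-likelihood p-values were adjusted over all genes tested by Benjamini-Hochberg, each comparison on its 10 libraries and each interaction on 20. Standard errors are the log2 fold change divided by the square root of F. Alternatives were DESeq2 1.42.0, RLE normalization, limma 3.58.1 on log2(TPM + 1), the replicate number as a block, all genes with any count, a minimum of 10 counts in each library, 1 fit over 40 libraries, a 2-fold threshold and each replicate left out. The code was tested on simulated data. Totals of 4224356 to 7866046 counts per library and 5 replicates gave common biological coefficients of variation of 7.95% to 15.1%, and sampling noise weighs most on CYC1, ATP20 and CYC7, which had as few as 4, 11 and 13 counts. All libraries entered the fits, and no replicate pair agreed within sampling noise. Coordinates and sequences are from RefSeq R64, which held all 40 members at the length given in the files. No member overlaps another RefSeq gene.

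The members and gene lists were chosen with earlier results of these data known. Values of every library are given for CYC1, CYC7, COX5A, COX5B, NDE1, NDE2, NDI1 and, in the comparisons of Cr41 and of strains, for the member of each complex with the largest change among those that passed. SDH1 in RM11 in YM and ATP1 in YM were added after their values were seen. The deviations of same-numbered libraries had correlations between -0.363 and 0.548, and in no comparison were all above 0.1. At most 3 pairs of a comparison were, between strains in YM, so whether the numbers pair the libraries was not settled.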

Additional observations from a re-analysis of the deposited data

Results flagged for a closer look

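Within groups of 5 libraries, 13 of 141 sets of values tested held a library far from the rest by Dixon's test, of which chance gives about 5%. In the Cr41 group of RM11 in YM, replicate 5 was high for QCR6, at 1669 CPM against 1044 to 1138 CPM in the other libraries, and for the summed bc1 complex, at 5045 against 4297 to 4490 summed CPM. It was low for NDE2, at 36 against 46.4 to 50.2 CPM, for NDI1, at 365 against 506 to 538 CPM, for summed succinate dehydrogenase, at 2346 against 4036 to 4358, and for the summed NADH dehydrogenases, at 999 against 1427 to 1594. In untreated S288c in YM, replicate 5 was low for NDI1, at 92.5 against 132 to 144 CPM, and for the summed bc1 complex, at 1408 against 1609 to 1644. In untreated RM11 in YM, replicate 5 was low for CYC1, at 54.1 against 63.5 to 66.97 CPM, and for summed cytochrome c, at 58.0 against 72.2 to 76.5. In WYF, untreated RM11 replicate 3 was low for ATP15, at 38.3 against 44.9 to 47.4 CPM, untreated RM11 replicate 1 was high for summed succinate dehydrogenase, at 4964 against 4602 to 4676, and untreated S288c replicate 1 was high for RIP1, at 44.9 against 33.7 to 36.3 CPM. What sets these libraries apart was not tested.

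By the interaction test (edgeR, adjusted p under 0.05), responses differed between strains for 17 members in YM and 17 in WYF. Of all genes, 25.7% were positive and 28.4% negative in YM, and 15% and 20.1% in WYF. Between media the responses differed for 24 members in S288c, against 19.6% and 21.4% of all genes. In RM11 they differed for 5, against 5.12% and 6.1%. The strain difference itself depended on the medium for 21, against 18.4% and 17%. Of at least 2-fold size were ATP17 at -1.52 and CYC1 at -2.41 between strains in YM. Of all genes, 11% were positive and 8.21% negative by as much there. Between media in S288c, COX7 at 1.33, ATP17 at 1.19, CYC1 at 1.89 and CYC7 at -1.06 reached this size, against 2.47% and 6.53%. For the strain difference between media QCR9 did, at 1.06, against 3.73% and 1.16%.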

How the results depend on the processing

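No recomputed value that had passed turned its direction. Of 1417 recomputed values of named genes, 1292 stayed on the same side of the threshold, 108 no longer passed and 17 newly passed. The direction of values that passed in neither fit was not counted. The limits are set by depth for CYC1 in S288c in YM, which the filter of at least 10 counts in every library removed there. Counts of members were within 1.5 times of the main ones except as follows. Requiring at least a 2-fold change left 6 and 1 members with Cr41 in S288c in YM and WYF, 2 and 2 in RM11, 22 between strains in WYF, 6 and 1 between media in S288c and RM11, and 2, 0, 4, 0 and 1 for the interactions of strain with Cr41 in YM and in WYF, of medium with Cr41 in S288c and in RM11, and of strain with medium. In 1 fit over 40 libraries 6 members passed with Cr41 in RM11 in WYF and 3 for the medium interaction in RM11, where limma on log2(TPM + 1) also gave 3 and leaving out the libraries that stood apart, a setting chosen after seeing the data, gave 9. Leaving out 1 replicate gave 3 to 17 members with Cr41 in RM11 in YM, 9 to 20 for the strain interaction in YM and 0 to 12 for the medium interaction in RM11. The ranges were 21 to 26 and 23 to 30 with Cr41 in S288c in YM and WYF, 15 to 20 in RM11 in WYF, 39 to 40 and 37 to 38 between strains in YM and WYF, 27 to 38 and 17 to 23 between media in S288c and RM11, 12 to 17 for the strain interaction in WYF, 17 to 23 for the medium interaction in S288c and 15 to 24 for that of strain with medium. The cause of these differences was not tested. With limma on log2(TPM + 1) all genes tested had a median log2 fold change of 0.10 and 0.15 between strains in YM and WYF, where 38 and 36 members were still lower, and for the medium interaction in RM11 1 member was positive and 2 negative.

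With the replicate number as a block, 23, 24, 5 and 19 members passed with Cr41 in S288c in YM and WYF and in RM11 in YM and WYF, 40 and 37 between strains, 30 and 22 between media, and 16, 16, 22, 4 and 20 for the interactions in the order above. Whether the numbers pair the libraries was not settled, and with the block no count moved by more than 1.5 times.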

Other observations

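The subunits that mitochondrial DNA encodes rose together with Cr41 in S288c in YM. There, 6 of the 6 tested rose with Cr41 (33% of all genes tested did), with a median log2 fold change of 0.99: COX1 averaged 249 ± 33.5 CPM with Cr41 and 123 ± 7.39 CPM untreated, and COB, the cytochrome b subunit of the bc1 complex, 492 ± 111 CPM with Cr41 and 241 ± 22.5 CPM untreated (SD, n = 5 each). In RM11 in YM, all 6 fold changes were below 0 and 1 passed, that of COX2, and the strain difference in the response passed for all 6, with a median of 1.17 for S288c minus RM11. In WYF, 1 of 6 rose with Cr41 in S288c and 5 of 6 in RM11, with medians of 0.17 and 0.30, against 22.7% and 17.8% of all genes. In WYF against YM, 5 of 6 rose in untreated S288c, against 20% of all genes, and the median in untreated RM11 was 0.02. Between untreated strains in YM, COX1, COX2, COX3 and OLI1 were lower in S288c, at -1.75, -0.66, -1.56 and -1.09, whereas COB was higher, at 0.96 (edgeR adjusted p = 8.3e-08). ATP8 was not tested, with group means of at most 1.04 CPM.

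Of 11 genes of the TCA cycle, which supplies the electrons, 11 were lower in untreated S288c in YM and 10 in WYF, against 35.3% and 27.5% of all genes, with medians of -0.82 and -0.74, beside -1.47 and -1.08 for the nuclear members. With Cr41 in S288c in YM, 2 of the 11 rose and 2 fell, against 33% and 34.2% of all genes, with a median of 0.07. ACO1, aconitase, fell there, with 343 ± 67.3 CPM, against 773 ± 67.7 CPM untreated (SD, n = 5 each; log2 fold change -1.22, standard error 0.11, edgeR adjusted p = 1.3e-06), and rose in the other combinations by 0.41 in S288c in WYF and by 0.40 and 0.28 in RM11 in YM and WYF. In RM11 in YM its groups overlapped. The deviating Cr41 library of replicate 5 had 781.1 CPM, below the untreated range of 875.6 to 978.5 CPM, and the other Cr41 libraries had 1284 to 1410 CPM. Of 33 assembly factors, 28 were lower and 1 was higher in untreated S288c in YM, with a median of -0.67, against 35.3% and 36.2% of all genes. With Cr41 in S288c in YM, 7 of the 33 rose and 10 fell, against 33% and 34.2% of all genes. CBP6, which acts in the making of cytochrome b, fell most there (log2 fold change -1.47, standard error 0.13, edgeR adjusted p = 8.1e-07), and by less in S288c and RM11 in WYF, at -0.56 and -0.37. In heme synthesis 5 of 8 genes fell with Cr41 in S288c in YM, when 34.2% of all genes fell. HEM15, ferrochelatase, which places iron in heme, had 59.8 ± 9.28 CPM with Cr41, against 215 ± 22.6 CPM untreated (SD, n = 5 each; log2 fold change -1.89, standard error 0.10, edgeR adjusted p = 1e-08), and 212 ± 12.3 CPM with Cr41, against 287 ± 23.9 CPM untreated, in S288c in WYF (SD, n = 5 each; log2 fold change -0.46, standard error 0.07, edgeR adjusted p = 9.4e-05). It rose in RM11 in WYF at 0.44 and did not pass in RM11 in YM, at 0.31. That result in YM rests on the deviating Cr41 library of replicate 5. HEM15 had 221.6, 232.9, 228.8, 225.5 and 134.5 CPM with Cr41 there, against 183.8, 162.1, 168.3, 166 and 162.3 CPM untreated. Its fold change without that library is not given here. The hypoxic genes ANB1, AAC3, DAN1 and TIR1 had group means of at most 5.25 CPM.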
